A study of Sus scrofa with 12 samples.

Results

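RAB GTPases, SNARE proteins and the VPS proteins that work with them move membrane and cargo between the compartments of a cell, and their transcripts were compared here between early and hatched blastocysts of the pig. The members were the genes whose platform symbol is a numbered RAB, STX, VAMP, VPS or SNAP symbol, or begins with SFT2D. Of the 12627 named genes measured on either of the 2 array designs, 91 were members: 43 RAB genes, 10 syntaxin (STX) genes, 4 VAMP genes, 27 VPS genes, 4 SNAP genes and 3 SFT2D genes. One array design measured 90 of them, the other measured 27, and 26 were measured on both, so RAB5A was the single member seen only on the second design. Membership followed symbols, but the symbol rule was set with earlier results of these data known. Among the members, 2 differ from what their symbols say: VPS72 is a chromatin protein, and SNAP91 is a clathrin adaptor of endocytosis rather than a SNARE.

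The embryos were Sus scrofa blastocysts at the early stage, collected 5 days after insemination, and at the hatched stage, collected 5.5 days after it. Each array held amplified RNA of both stages, labelled in Cy3 and Cy5. The first array set (slides 4 and 22) and the second (slides 8 and 20) had 6 arrays each, 3 with the early stage in Cy5 and 3 with the hatched stage in Cy5. Source names say in vivo for the embryos of the first set, and those of the second name only the stage. The labels name no treatment for either stage and give neither breed nor the number of embryos behind each RNA sample.

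RAB proteins are small GTPases that sit on particular membranes and, when bound to GTP, recruit the motors and tethers that bring a vesicle to its target. Syntaxins, VAMPs and SNAP proteins are SNAREs, whose helices zip together across the gap and fuse the membranes. Many VPS proteins, named for vacuolar protein sorting in yeast, are subunits of complexes: HOPS and CORVET tether endosomes and lysosomes, retromer returns cargo from endosomes, ESCRT complexes bud vesicles into endosomes, and GARP tethers vesicles at the Golgi. In the blastocyst, the trophectoderm is a polarised epithelium that needs this traffic to place junction proteins and ion pumps, and at hatching the embryo leaves the zona pellucida.

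Each value is the deposited log2 ratio of the stages, averaged over the probes of a gene on an array. Positive correlations between most arrays of opposite dye showed that the deposited ratios already run the same way in both orientations, but the labels do not name the numerator stage. Values are therefore described as lying on the positive or the negative side, and no stage is called higher. Early 2, for example, stands for the second early-in-Cy5 array in accession order, and equal numbers pair no arrays. A gene was called when its limma adjusted p, corrected by Benjamini-Hochberg over all genes of its array set, was below 0.05.

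The spread of the deposited ratios over all probes ranged from an SD of 0.301 to 0.462 across the first 6 arrays and from 0.364 to 0.512 across the second 6. Deviations from the fitted values paired the arrays of opposite dye in the same way on both sets: early-in-Cy5 array 1 with hatched-in-Cy5 array 2 (r = 0.73 and 0.75 across genes), early 2 with hatched 1 (r = 0.67 and 0.66), and early 3 with hatched 3 (r = 0.36 and 0.56). Of all pairings of opposite-dye arrays, the one given had the highest total r, so positive r within pairs is partly set by that choice. The first of these pairs had the narrowest ratios on both sets. Genes are not independent replicates. Whether arrays share an extract is not stated, and the p-values therefore reflect only how much these arrays vary, a spread that may be technical. When each pair was averaged to leave 3 values, limma called 0 members on either set, with 16 members at an unadjusted p below 0.05 on the first and 6 on the second. The share of all genes at that unadjusted level is not given, so these counts show nothing particular to the members. Trophectoderm markers were called 3 times on the positive side among 10 measured on the first set, and on the second 2 of 7 were called on each side (30.0% and 57.1%, where 4.75% and 11.0% of all genes were called). Inner cell mass markers were called on the negative side for 1 of 7 on the first set, and for 2 positive and 1 negative of 8 on the second (14.3% and 37.5%). Of the hypoblast markers 2 of 5 were called positive on the first set, and 1 of 3 on each side on the second (40.0% and 66.7%). Blood, oviduct and sperm markers gave 0 calls on either set, and cumulus markers gave 0 of 6 and 1 of 5. A ratio carries no level, so whether any marker is present cannot be read from these values, and fewer cells of a type and less RNA per cell cannot be told apart.

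On the first array set, 8 of the 90 members were called (8.89%, against 4.75% of all 11913 genes). RAB13, RAB34, RAB39B, VPS26B and VPS28 lay on the positive side (5.56% of members, against 2.38% of genes), and RAB2A, RAB38 and SFT2D2 on the negative side (3.33%, against 2.38%). Among the 27 members on the second set, 5 were called (18.5%, against 11.0% of all 4531 genes). There RAB5C, VPS26B, VPS28 and VPS39 were positive (14.8%, against 5.27% of genes) and RAB2A was negative (3.7%, against 5.72%). These 13 calls fell on 10 genes. Both slides of a set held each called member on its side of 0: on slide 22 alone SFT2D2 (-2.02) and RAB39B (1.35) were called, and the mean over the 2 arrays of slide 4 was -2.18 and 0.85 for them. The 4 arrays of slide 20 alone gave calls for all but VPS26B of the 5 members, with RAB2A at -0.74 there and a mean of -0.71 over the 2 arrays of slide 8. An unadjusted p below 0.05 was reached by 24 members on the first set (26.7%, against 17.1% of genes) and by 7 on the second (25.9%, against 23.7%, a share near that of all genes).

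The module as a whole had no common side. On the first set 46 of 90 members had a ratio above 0, against 6099 of 11913 genes, with a median of 0.00067 against 0.0027 for all genes. Of the 27 on the second set, 14 lay above 0, against 2320 of 4531 genes, with a median of 0.00096 against 0.0050. Without regard to side, the median member ratio was 0.080 on the first set and 0.12 on the second, against 0.071 and 0.089 for all genes. The standard error of a member's ratio had a median of 0.069 and ran from 0.048 to 0.29 on the first set, and had a median of 0.082 and ran from 0.056 to 0.19 on the second. For 87 of the 90 members the 95% interval stayed within 1 log2 unit of 0, the exceptions being RAB39B, RAB6B and SFT2D2, and for 74 it stayed within 0.5. The interval on the second set stayed within 1 for 26 of 27 members, all but VPS28, and within 0.5 for 19.

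**Figure D1:**
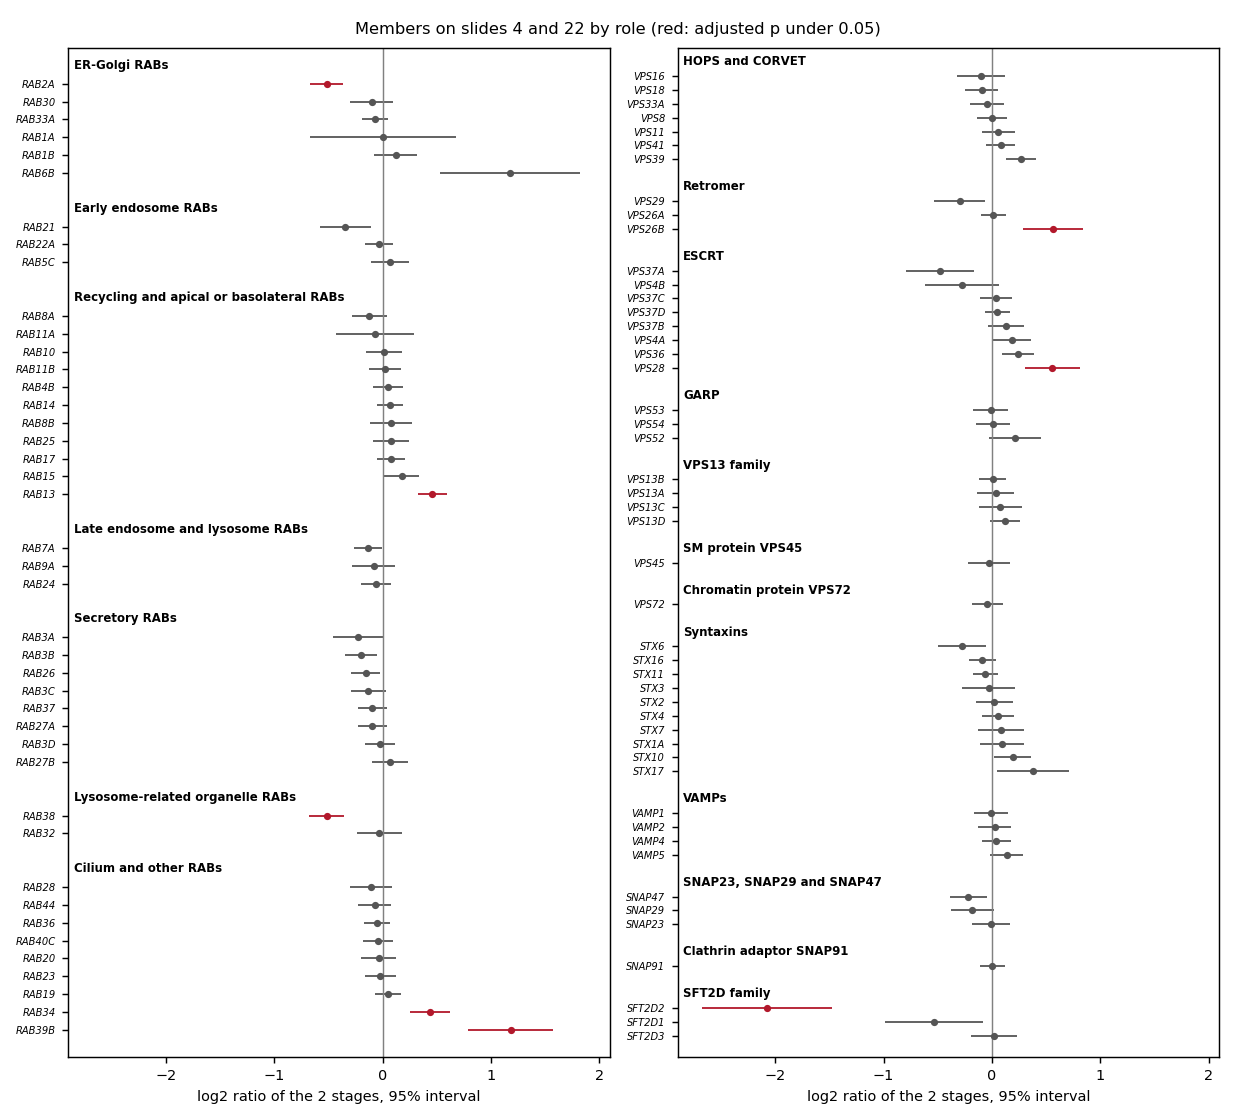
Each point is the log2 ratio of 1 member on the first array set (horizontal axis), with 1 row per gene, grouped by the role of its protein, and bars for the 95% interval. Red marks members called by limma at an adjusted p below 0.05. Most members sit close to 0, and SFT2D2 at -2.07 and RAB39B and RAB6B at 1.18 stand farthest out.

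Among the RABs of the endoplasmic reticulum and Golgi, RAB2A, which acts in transport between these organelles and in the formation of secretory and lysosomal carriers, lay on the negative side throughout. On the first set its ratios were -0.61, -0.88 and -0.54 on early-in-Cy5 arrays 1 to 3 and -0.49, -0.32 and -0.26 on hatched-in-Cy5 arrays 1 to 3. The second set gave -0.61, -1.16 and -0.70, then -0.81, -0.57 and -0.52. All 12 values were negative, with early 2 the lowest on both sets, and the dye orientations overlapped on the second set but not on the first, where every early-in-Cy5 value was below every hatched-in-Cy5 value. The fitted ratio was -0.52 ± 0.07 (SE, n = 6 arrays, limma adjusted p = 0.00798) on the first set and -0.73 ± 0.09 (limma adjusted p = 0.00361) on the second, which is 1.43-fold and 1.66-fold if the base is 2. Of its 4 probes on the first set 3 were called, at -0.98, -0.57 and -0.52, while the fourth gave -0.003. Of its 5 probes on the second set 4 were called, and the probe ratios ran from -1.01 to -0.36. The call was kept when any single array was left out on either set.

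RAB6B, a Golgi RAB best known from neurons, had one of the largest ratios and was not called. On the first set its values were -0.03, 1.40 and 2.0 on early-in-Cy5 arrays 1 to 3 and 1.46, 0.44 and 1.80 on hatched-in-Cy5 arrays 1 to 3. Early 1 lay close to 0 while the other 5 arrays were positive, and the orientations overlapped. The fit gave 1.18 ± 0.28 (95% interval 0.53 to 1.82, limma adjusted p = 0.0630). Leaving out early 1 gave an adjusted p of 0.0171, and leaving out hatched 2 gave 0.0451. These arrays form the pair of narrowest ratios. Of 17 alternative fits, 4 called RAB6B and 13 left it uncalled.

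RAB1A, which is needed for transport from the endoplasmic reticulum to the Golgi, had the largest standard error of the members on the first set. Its ratios there were 0.88, -0.96 and -0.22 on early-in-Cy5 arrays 1 to 3 and -0.86, 1.0 and 0.16 on hatched-in-Cy5 arrays 1 to 3. Early 1 and hatched 2 were both strongly positive, and early 2 and hatched 1 both strongly negative, so the values followed the array pairs named above and not the dye. The mean of 0.00 ± 0.29 thus came from arrays on both sides. On the second set the spread was narrower and early 1 and hatched 2 were again the highest, both at 0.45. The other pairs did not separate there, with 0.06 and 0.05 on early 2 and hatched 1 and -0.08 and 0.25 on early 3 and hatched 3. The fitted ratio was 0.20 ± 0.09 (limma adjusted p = 0.240). RAB1B, a second RAB1 form, and the Golgi proteins RAB30 and RAB33A were called on no set that measured them, with ratios from -0.10 ± 0.08 for RAB30 to 0.12 ± 0.08 for RAB1B on the first.

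**Figure D2:**
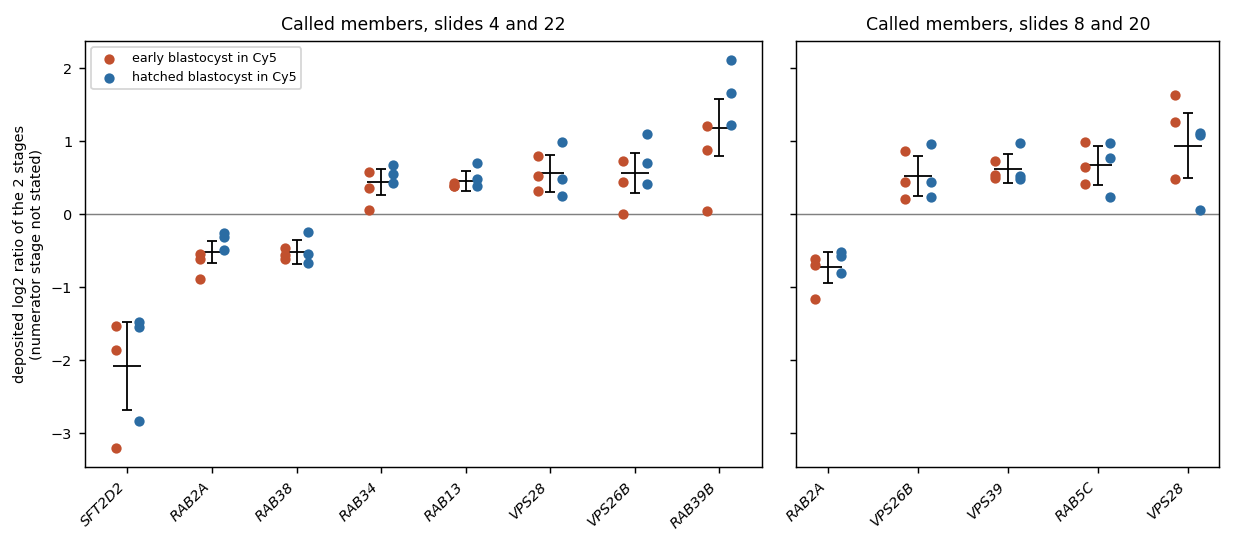
The deposited log2 ratio of each called member (vertical axis) is drawn for every array, coloured by the stage in Cy5, in 1 panel per array set, with the fitted ratio and its 95% interval in black. Every called member has all its arrays on 1 side of 0, and the values closest to 0 are those of VPS26B, RAB39B and RAB34 on early-in-Cy5 array 1 of the first set and of VPS28 on hatched-in-Cy5 array 2 of the second.

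Early endosomes are marked by RAB5 proteins, which drive fusion of incoming endocytic vesicles. RAB5C gave different readings on the array sets. Its ratios on the second set were 0.41, 0.98 and 0.65 on early-in-Cy5 arrays 1 to 3 and 0.98, 0.24 and 0.77 on hatched-in-Cy5 arrays 1 to 3. All 6 were positive with overlapping orientations, and the fitted ratio was 0.67 ± 0.11 (limma adjusted p = 0.0114, 1 probe). Leaving out hatched 3 ended that call, with an adjusted p of 0.0509. Its single probe on the first set gave 0.15, 0.30 and 0.60 with the early stage in Cy5 and -0.07, -0.22 and -0.34 with the hatched stage in Cy5. There the orientations lay on opposite sides of 0 and did not overlap, and the stage ratio was 0.07 ± 0.07 (limma adjusted p = 0.718). RAB5A, the best studied RAB5 protein, gave -0.06 ± 0.06 on the second set. RAB21, which controls traffic of integrins through endosomes, was negative on all 6 arrays of the first set, at -0.34 ± 0.10, and was not called (limma adjusted p = 0.122). RAB22A, which acts between early and recycling endosomes, gave -0.04 ± 0.06 and -0.14 ± 0.09 on the first and second sets.

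Recycling RABs return membrane to the surface, and several work at the apical or basolateral face of epithelia. Of the 11 measured on the first set, 9 had a ratio above 0, with a median of 0.07, and 1 was called. That member was RAB13, which takes part in delivery of proteins to tight junctions. Its ratios were 0.42, 0.39 and 0.38 on early-in-Cy5 arrays 1 to 3 and 0.70, 0.48 and 0.38 on hatched-in-Cy5 arrays 1 to 3. All 6 were positive and lay close together apart from hatched 1, the highest. The fitted ratio was 0.46 ± 0.06 (limma adjusted p = 0.00788, 1.38-fold). None of its 3 probes, at 0.07, 0.23 and 1.08, was called on its own, and with the median over probes in place of the mean the ratio was 0.18 and the adjusted p 0.474.

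RAB11A, the RAB of the recycling endosome and of apical delivery, came closest to a call on the second set without reaching it. Its ratios there were -0.08, -0.68 and -0.23 on early-in-Cy5 arrays 1 to 3 and -0.76, -0.22 and -0.26 on hatched-in-Cy5 arrays 1 to 3. All were negative, and the lowest were early 2 and hatched 1. The fit gave -0.37 ± 0.11 (limma adjusted p = 0.0692), and 1 of its 6 probes, which ran from -0.48 to -0.19, was called. On the first set RAB11A had values on both sides of 0, from -0.64 to 0.47, and a ratio of -0.07 ± 0.15. RAB11B and RAB25, its close relatives, gave 0.02 ± 0.06 and 0.08 ± 0.07 on the first set. The remaining recycling RABs there (RAB4B, RAB8A, RAB8B, RAB10, RAB14, RAB15 and RAB17) ranged from -0.12 ± 0.07 for RAB8A, which acts in transport to the surface and the cilium, to 0.18 ± 0.07 for RAB15, which alone of these had an unadjusted p below 0.05.

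Outside these groups, 3 more RABs were called on the first set. RAB39B, which is expressed mainly in brain and linked to autophagy, had 0.04, 0.88 and 1.20 on early-in-Cy5 arrays 1 to 3 and 1.65, 1.22 and 2.11 on hatched-in-Cy5 arrays 1 to 3. The orientations did not overlap, with early 1 close to 0 and hatched 3 the highest. The fitted ratio was 1.18 ± 0.17 (95% interval 0.79 to 1.58, limma adjusted p = 0.0112, 2.27-fold, 1 probe). Leaving out early 2 gave an adjusted p of 0.0513, and no other single array ended the call.

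RAB38, which sorts cargo to melanosomes and other lysosome-related organelles, had -0.61, -0.56 and -0.47 on early-in-Cy5 arrays 1 to 3 and -0.67, -0.54 and -0.24 on hatched-in-Cy5 arrays 1 to 3. These values were all negative and overlapped between orientations. Its ratio was -0.51 ± 0.07 (limma adjusted p = 0.00887, 1.43-fold, 1 probe), and leaving out any single array kept the call. RAB32, its partner in melanosome biogenesis, was called on neither set, at -0.03 ± 0.09 and -0.20 ± 0.09.

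RAB34, which acts in the formation of primary cilia and in lysosome positioning, had 0.06, 0.35 and 0.58 on early-in-Cy5 arrays 1 to 3 and 0.55, 0.42 and 0.68 on hatched-in-Cy5 arrays 1 to 3 of the first set. All were positive, early 1 was close to 0, and the orientations overlapped. The ratio was 0.44 ± 0.08 (limma adjusted p = 0.0236, 1.36-fold), from probes at -0.05, 0.09 and 1.29, and the median over probes gave 0.14 with an adjusted p of 0.318. The call was lost without hatched 1, early 2, early 3 or hatched 3, at adjusted p of 0.0865, 0.0987, 0.0833 and 0.0896. Its single probe on the second set gave 0.12 ± 0.10 (limma adjusted p = 0.522). RAB19, RAB20, RAB23, RAB28, RAB36, RAB40C and RAB44 were not called, with ratios from -0.11 ± 0.08 for RAB28 to 0.05 ± 0.05 for RAB19 on the first set.

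Secretory RABs act at regulated exocytosis, and 7 of the 8 measured on the first set had a ratio below 0, with a median of -0.11. Limma called 0 of them, against 4.75% of all genes. At an unadjusted p below 0.05 were 25.0% of them, against 17.1% of genes: RAB3B at -0.20 ± 0.06 and RAB26 at -0.16 ± 0.06. RAB26, RAB37 and RAB3D followed the dye, with every early-in-Cy5 array above 0 and every hatched-in-Cy5 array below it. For RAB26 the orientations averaged 0.11 and -0.42, so the shared side of these RABs is partly a dye pattern. RAB3C, RAB3D, RAB27A, RAB27B and RAB37 lay between -0.13 ± 0.07 for RAB3C and 0.07 ± 0.07 for RAB27B. RAB3A, the synaptic vesicle RAB, gave -0.23 ± 0.10 on the first set, and on the second it was negative on all 6 arrays at -0.26 ± 0.08 (limma adjusted p = 0.105). The 3 RABs of late endosomes and autophagy on the first set, RAB7A, RAB9A and RAB24, gave -0.14 ± 0.05, -0.08 ± 0.08 and -0.06 ± 0.06. None of these was called, and RAB7A alone had an unadjusted p below 0.05.

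None of the syntaxins, VAMPs or SNAP proteins among the members was called on either set, where 4.75% and 11.0% of all genes were called. The first set measured 10, 4 and 4 of them and the second 1 syntaxin. These are too few to set 0 calls apart from those shares. Of the 10 syntaxins on the first set, 3 had an unadjusted p below 0.05 (30.0%, against 17.1% of all genes). A ratio above 0 was found for 6, and the median was 0.04. The highest was STX17, the autophagosomal syntaxin, at 0.38 ± 0.14 (limma adjusted p = 0.223), with 0.11, 1.17 and 0.82 on early-in-Cy5 arrays 1 to 3 and 0.10, -0.27 and 0.34 on hatched-in-Cy5 arrays 1 to 3. Its high values came from early 2 and early 3, and hatched 2 was negative. The lowest was STX6, which acts at the trans-Golgi network, with 0.06, 0.09 and 0.23 when the early stage was in Cy5 and -0.26, -0.96 and -0.82 when the hatched stage was. Its orientations lay on opposite sides of 0, and the stage ratio was -0.28 ± 0.09 (limma adjusted p = 0.181). STX10 and STX16, both of the trans-Golgi network, kept 1 side on all 6 arrays, at 0.19 ± 0.07 and -0.09 ± 0.05, and STX16, the only syntaxin on the second set, gave -0.03 ± 0.06 there. STX1A, STX2, STX3, STX4, STX7 and STX11 lay between -0.06 ± 0.05 for STX11 and 0.09 ± 0.09 for STX1A and STX7.

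The vesicle SNAREs were close to 0. The 4 VAMPs, VAMP2 and VAMP4 among them, ran from -0.01 ± 0.07 for VAMP1, a synaptic vesicle VAMP, to 0.14 ± 0.07 for VAMP5, which is found in muscle. By limma 0 of the 4 reached an unadjusted p below 0.05, against 17.1% of all genes. SNAP23, SNAP29 and SNAP47, partners of syntaxins outside neurons, gave -0.01 ± 0.08, -0.18 ± 0.08 and -0.22 ± 0.07, and SNAP47 alone had an unadjusted p below 0.05 (limma adjusted p = 0.174). The adaptor SNAP91, averaged over 7 probes, gave 0.00 ± 0.05.

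**Figure D3:**
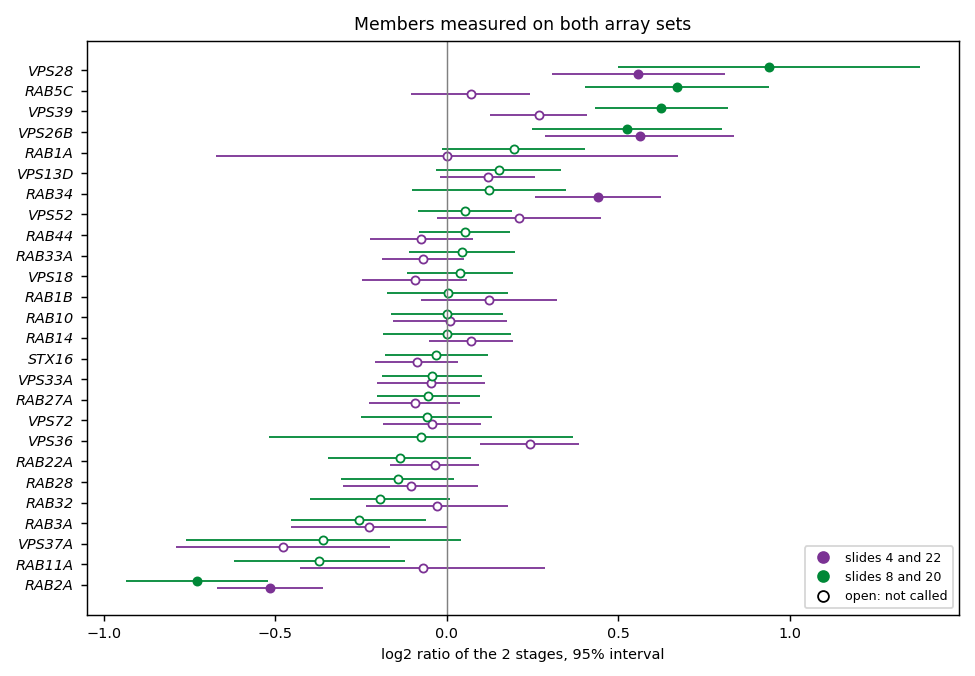
The log2 ratio of the 26 members measured on both array sets is given on the horizontal axis, with 1 row per gene, 1 colour per array set and bars for the 95% interval, and filled points mark called members. RAB2A, VPS26B and VPS28 were called on both, RAB34 on the first set only, and RAB5C and VPS39 on the second only.

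Among the VPS members, retromer and ESCRT each held 1 call on the first set. VPS26B, a cargo-binding arm of retromer, gave 0.00, 0.44 and 0.72 on early-in-Cy5 arrays 1 to 3 and 0.70, 0.41 and 1.10 on hatched-in-Cy5 arrays 1 to 3. The second set gave it 0.21, 0.45 and 0.86, then 0.44, 0.23 and 0.96. Early 1 was the lowest array and hatched 3 the highest on both sets, and the orientations overlapped. The ratios were 0.56 ± 0.12 (limma adjusted p = 0.0420, 1.48-fold) and 0.53 ± 0.12 (limma adjusted p = 0.0318, 1.44-fold). Its probes were at -0.05 and 1.17 on the first set, and on the second they ran from -0.02 to 1.14 with none called. The call was lost without hatched 1, early 2, early 3 or hatched 3, at adjusted p of 0.127, 0.146, 0.149 and 0.121 on the first set and 0.0843, 0.0948, 0.0965 and 0.0849 on the second. VPS26A, the other form of this arm, gave 0.01 ± 0.05, split by dye, and VPS29, a retromer core subunit, gave -0.30 ± 0.10 (limma adjusted p = 0.182).

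VPS28, a core subunit of ESCRT-I, had 0.31, 0.80 and 0.52 on early-in-Cy5 arrays 1 to 3 and 0.99, 0.25 and 0.48 on hatched-in-Cy5 arrays 1 to 3 of the first set. The second set gave 0.48, 1.64 and 1.27, then 1.11, 0.06 and 1.08. All 12 were positive, hatched 2 was the lowest on both sets, and the orientations overlapped. Its ratios were 0.56 ± 0.11 (limma adjusted p = 0.0327, 1.47-fold, 1 probe) and 0.94 ± 0.19 (limma adjusted p = 0.0203, 1.92-fold, both probes called at 0.92 and 0.95). Without hatched 1, early 2, early 3 or hatched 3 the adjusted p was 0.0713, 0.119, 0.121 and 0.0924 on the first set and 0.0781, 0.0746, 0.0747 and 0.0818 on the second.

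Other ESCRT subunits lay on both sides of 0. VPS37A, another ESCRT-I subunit, had 0.10, -0.66 and -0.82 on early-in-Cy5 arrays 1 to 3 and -0.78, -0.17 and -0.53 on hatched-in-Cy5 arrays 1 to 3 of the first set. All but early 1 were negative, and the ratio was -0.48 ± 0.13 (limma adjusted p = 0.109). The second set gave -0.36 ± 0.17 (limma adjusted p = 0.262), with hatched 2 positive at 0.53. Leaving out early 1 on the first set gave an adjusted p of 0.0244, and leaving out hatched 2 on the second gave 0.0425. Of 17 alternative fits per set, 15 left VPS37A uncalled on each. VPS36, an ESCRT-II subunit, was positive on all 6 arrays of the first set at 0.24 ± 0.06 (limma adjusted p = 0.0838), with 1 of 5 probes called, and gave -0.08 ± 0.19 on the second. VPS4A and VPS4B, the ATPases that take ESCRT polymers apart, gave 0.18 ± 0.08 and -0.27 ± 0.14 on the first set, and neither was called. VPS37B, VPS37C and VPS37D, alternative forms of the VPS37 subunit, gave 0.13 ± 0.07, 0.04 ± 0.06 and 0.05 ± 0.05.

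VPS39, a HOPS subunit, was the only HOPS or CORVET subunit called. Its values on the second set were 0.49, 0.54 and 0.74 on early-in-Cy5 arrays 1 to 3 and 0.52, 0.48 and 0.98 on hatched-in-Cy5 arrays 1 to 3. These were all positive and overlapped, and the ratio was 0.63 ± 0.08 (limma adjusted p = 0.00481, 1.54-fold, 1 probe), kept with any single array left out. Those on the first set were 0.21, 0.50 and 0.49, then 0.21, 0.10 and 0.09. All were again positive, and the ratio of 0.27 ± 0.06 was not called (limma adjusted p = 0.0542). Its 3 probes there lay at -0.13, 0.27 and 0.66, and the last was called. Leaving out early 1 of the first set gave an adjusted p of 0.0365, while 14 of 17 alternative fits left VPS39 uncalled there.

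The other HOPS and CORVET subunits on the first set (VPS8, VPS11, VPS16, VPS18, VPS33A and VPS41) ranged from -0.10 ± 0.09 for VPS16 to 0.08 ± 0.06 for VPS41. All 4 VPS13 proteins, which move lipids between organelles at contact sites, had ratios above 0, from 0.01 ± 0.05 for VPS13B to 0.12 ± 0.06 for VPS13D. Limma called 0 of the 4, with 0 at an unadjusted p below 0.05, against 4.75% and 17.1% of all genes. The GARP subunits VPS52, VPS53 and VPS54 gave 0.21 ± 0.10, -0.01 ± 0.07 and 0.01 ± 0.07. VPS45, which binds syntaxins, gave -0.03 ± 0.08, and the chromatin protein VPS72 gave -0.04 ± 0.06 and -0.06 ± 0.08 on the first and second sets.

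SFT2D proteins are small membrane proteins related to yeast Sft2, which acts in fusion at the Golgi. SFT2D2 had the largest ratio of any member, ranking at place 9 by size among the 11913 genes. Its values were -1.54, -3.20 and -1.86 on early-in-Cy5 arrays 1 to 3 and -2.83, -1.47 and -1.55 on hatched-in-Cy5 arrays 1 to 3. Every array was below -1, early 2 and hatched 1 were the lowest, and the orientations overlapped. The fitted ratio was -2.07 ± 0.25 (95% interval -2.67 to -1.48, limma adjusted p = 0.00751, 4.21-fold), it rested on 1 probe, and leaving out any single array kept the call. SFT2D1 had 0.26, -1.05 and -0.49 on early-in-Cy5 arrays 1 to 3 and -1.16, -0.04 and -0.74 on hatched-in-Cy5 arrays 1 to 3. Early 2 and hatched 1 were again the lowest, early 1 was positive, and the ratio of -0.54 ± 0.19 was not called (limma adjusted p = 0.207). SFT2D3 had 0.33, 0.53 and 0.43 with the early stage in Cy5 and -0.09, -0.76 and -0.30 with the hatched stage in Cy5, so the orientations were apart and the stage ratio was 0.02 ± 0.09.

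Members that follow the dye, with every array of 1 orientation above 0 and every array of the other below, numbered 16 of 90 on the first set, against 13.4% of all genes. They included RAB3D, RAB5C, RAB26, RAB37, STX6, SFT2D3, SNAP29, VPS26A, VPS41 and VPS54. Of 27 members on the second set 4 did so (RAB1B, RAB44, VPS18 and VPS52), against 9.42% of genes, and VPS18 was split on both but in opposite ways. Its early-in-Cy5 arrays averaged -0.37 and its hatched-in-Cy5 arrays 0.18 on the first set, against 0.18 and -0.11 on the second. Limma called the dye term for 0 members on either set, against 118 of 11913 genes on the first and 0 of 4531 on the second. At an unadjusted p below 0.05 for dye were 19 and 3 members, with no share of all genes to set beside them. Members with all 6 arrays on the same side numbered 13 of 90 (14.4%, against 9.24% of genes) on the first set and 7 of 27 (25.9%, against 15.2%) on the second. Those not called were RAB21, STX10, STX16, VPS36 and VPS39 on the first set and RAB11A and RAB3A on the second.

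Probe by probe, 12 of 157 member probes were called on the first set (7.64%, against 4.64% of all 43794 probes), 6 on each side. Of 69 member probes on the second set 9 were called (13.0%, against 6.12% of 45220 probes), 4 positive and 5 negative. Of the 32 members with several probes on the first set, 19 had probes on both sides of 0. Separately, 9 of the 32 had probe ratios that spanned more than 0.5, whether or not these crossed 0: RAB13, RAB27A, RAB2A, RAB34, SFT2D1, VPS26B, VPS36, VPS39 and VPS41. As for the second set, 8 of 19 members with several probes had probes on both sides, and RAB22A, RAB2A, RAB3A, STX16 and VPS26B spanned more than 0.5. VPS29, VPS36 and VPS39 on the first set and RAB11A on the second had a called probe without being called as genes. Whether such probes read different transcripts was not tested.

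**Figure D4:**
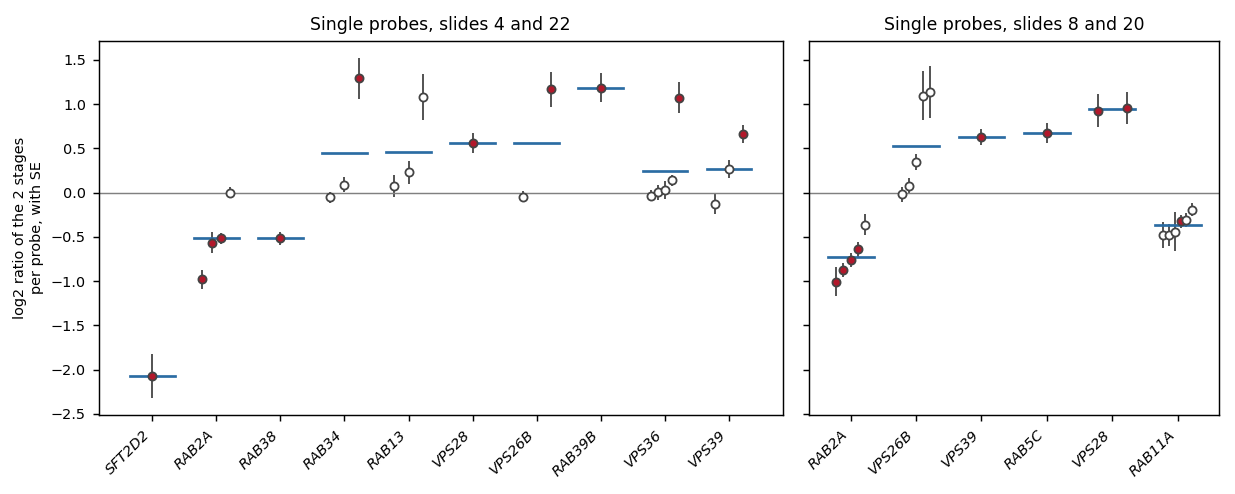
Each point is the log2 ratio of 1 probe (vertical axis, with its SE) of the called members and of VPS36, VPS39 and RAB11A, in 1 panel per array set. Filled points are probes called by limma, and blue lines give the gene ratio. RAB2A had called probes on the negative side on both sets, whereas RAB13, RAB34 and VPS26B each had 1 or more probes near 0 beside a probe above 1 on the first set.

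Of the 26 members on both array sets, 3 were called on both, RAB2A on the negative side and VPS26B and VPS28 on the positive side, 1 on the first only, 2 on the second only and 20 on neither. Those called on both were 11.5% of these members, against 2.88% of the 3817 genes measured on both sets (110 genes). Calls on the first set only took 3.85% of members against 3.27% of genes, and calls on the second only 7.69% against 8.30%. Whether the designs were hybridised with the same RNA is not stated, so the array sets cannot be taken as independent samples. The difference of a member's ratio between the sets was not tested.

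The wider machinery around the members, in lists of RAB regulators, other SNAREs, tethers, coats, adaptors, ARF GTPases, ESCRT proteins and sorting nexins, had 172 genes on the first set and 60 on the second. On the first set limma gave 6 positive calls against 5 negative ones (6.40%, against 4.75% of all genes), with a median of -0.01, and on the second 3 were positive and 5 negative (13.3%, against 11.0%), with a median of -0.04. These shares are near those of all genes, so the calls below describe single genes. TBC1D15, a GTPase-activating protein for RAB7, was called on both, at -0.86 ± 0.09 and -0.71 ± 0.13. Without hatched 3 its adjusted p on the second set was 0.0550. It was nonetheless among the steadier calls, weakened by 1 of 17 alternative fits on the first set and 2 on the second. The other RAB regulators called were TBC1D20, which inactivates RAB1, at 1.12 ± 0.19 and DENND2D, a DENN-domain protein of the family that activates RABs, at 0.59 ± 0.08 on the first set, and GDI2, which extracts RABs from membranes, at 0.35 ± 0.08 on the second. DENND2D gave 0.55 ± 0.24 on the second set and GDI2 0.37 ± 0.15 on the first, neither of them called.

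Golgi tethering had calls on both sides of the first set. TRAPPC2 at -1.09 ± 0.08, TRAPPC3 at -0.55 ± 0.11 and TRAPPC6B at 0.62 ± 0.08 are subunits of TRAPP, which activates RAB1. GOSR1, a Golgi SNARE, was called at 1.13 ± 0.20, and ARCN1, a COPI coat subunit, at 0.39 ± 0.07. ARFIP2, an effector of ARF and RAC proteins, was called at 0.65 ± 0.12, STAM, an ESCRT-0 subunit, at -0.31 ± 0.06 and SNX12, a sorting nexin, at -0.56 ± 0.05. Exocyst genes (6) and clathrin and adaptor genes (26) gave 0 calls by limma on the first set, against 4.75% of all genes.

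On the second set the called clathrin adaptors were AP3B1 at 0.36 ± 0.06 and AP3D1 at -0.49 ± 0.11, both subunits of the AP-3 complex, and DAB2, an adaptor for endocytosis, at -1.12 ± 0.16. CYTH2, which activates ARF proteins, was called at 0.50 ± 0.07, STAM2, an ESCRT-0 subunit, at -0.59 ± 0.12 and the sorting nexin SNX25 at -0.72 ± 0.15. None of these 6 was called on the first set, where AP3B1 gave 0.16 ± 0.05, AP3D1 -0.24 ± 0.09, DAB2 -0.14 ± 0.08 and STAM2 -0.10 ± 0.05. CYTH2 gave 0.00 ± 0.08 there, and SNX25 lay on the opposite side at 0.26 ± 0.11. Leaving out single arrays moved the number of these calls between 5 and 13 on the first set and between 3 and 10 on the second. Without hatched 1, early 2, early 3 or hatched 3 each, the count was 5 on the first set, and on the second it was 4, 4, 4 and 3. Of 17 alternative fits, 10 weakened the call of STAM and 8 those of ARCN1 and GDI2. For TBC1D20, GOSR1, ARFIP2, TRAPPC3, STAM2 and SNX25 it was 7 each, for AP3D1 6 and for DENND2D 3. AP3B1 was weakened by 2, and TRAPPC2, TRAPPC6B, SNX12, CYTH2 and DAB2 by 1 each.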

How the data were processed

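Early and hatched pig blastocysts were compared on 2-colour arrays, 6 per design. Per the labels' protocols, PicoPure extraction was followed by T7 amplification and ULS dye labelling. The deposited values are 1 log2 ratio per probe and array. The log base was taken from the range of the values, and scanner, background correction, normalization and ratio direction are not stated. Probes were named from the platform tables, with symbols updated through RefSeq's gene table, and probes of 1 symbol were averaged per array. The second set had 10290 named and 34930 unnamed probes, the first 18121 and 25673. limma 3.58.1 (R 4.3.3) was run on each array set separately, with a stage and a dye term, over all genes, after a test on simulated data. The simulated arrays were independent, so that test says nothing about error rates where arrays correlate in pairs, as these did. No low-signal filter was possible. Named members are all those called, their values on the other set, the 3 largest uncalled per set and each family's extremes; members named beyond these were chosen after their values were seen. Members, lists and this rule were chosen with earlier results of these data known. Alternatives covered array pairs, dye, slide, probe summary, naming, scaling, centring, robust variance and leaving out arrays.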

Additional observations from a re-analysis of the deposited data

Results flagged for a closer look

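In 6 of 117 combinations of member and array set (5.13%), 1 of the 6 arrays stood apart from the other 5 by a gap that, as a share of the whole range, exceeded Dixon's 95% critical value, and chance flags about 1 in 20. RAB13 on the first array set had a gap of 0.678 of its range, with hatched-in-Cy5 array 1 highest at 0.70. On the same set the gap was 0.660 for RAB11B (early-in-Cy5 array 2 at 0.27), 0.637 for STX11, a syntaxin of immune cells (early 3 at -0.21), 0.766 for VAMP1 (early 2 at -0.31) and 0.654 for the CORVET subunit VPS8 (hatched 2 at -0.21). On the second set RAB27A, a RAB of secretory lysosomes, had a gap of 0.772, with early 1 at -0.30. RAB13 is the only called gene among them.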

How the results depend on the processing

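Called members numbered 8 of 90 and 5 of 27 (first and second array set). Averaging the residual pairs gave 0 and 0 (16 and 6 members at an unadjusted p below 0.05, without a share of all genes to compare). With slide as a block it was 5 and 3, on the slide with 4 arrays alone 2 on the first set, and leaving out each array gave 4 to 12 and 2 to 6. Without the residual pair of narrowest spread, a choice made after seeing the data, 16 were called on the first set. Over all genes the counts of 566 and 498 became 0 and 4 with averaged pairs, 249 and 290 with slide as a block, 243 and 210 on the slide with 4 arrays, 1166 and 785 without the narrowest pair, and 197 to 610 and 255 to 578 leaving out arrays. The cause of these shifts was not tested, beyond the fewer values fitted. No member or other traffic gene named changed sign under any alternative while called. The block of slide ended RAB34, VPS26B and VPS28 on the first set (adjusted p of 0.0774, 0.122 and 0.0903) and VPS26B and VPS28 on the second (0.0870 and 0.0684). Calls of other traffic genes went from 11 and 8 to 0 and 0 with averaged pairs, 5 and 5 with slide as a block, 4 and 4 on the slide with 4 arrays, and 23 and 18 without the narrowest pair. No paired analysis by label was possible because the labels give no replicate numbers. The robust-variance fit was run, and eBayes with a trend was not run. Signal over background, and so what dim probes could show, is unknown from ratios.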
